A study of Mus musculus with 8 samples.

Results

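Fos, Fosb, Jun, Junb, Jund, Atf3, Egr1, Ier2, Dusp1 and Hspa1a are immediate early and stress genes. Cells switch most of them on soon after a stimulus, and many are also known to be induced while tissue is digested into single cells. The 10 genes were taken by symbol from the 24786 symbols in the files, and all 10 were found and passed the filter on low counts. Messenger RNA was sequenced in 8 libraries of hepatic macrophages from C57BL/6 mice, 2 libraries in each of 4 groups. The groups were monocyte-derived macrophages (MoM) of TG mice, MoM of WT mice, Kupffer cells of TG mice and Kupffer cells of WT mice. Kupffer cells are the resident macrophages of the liver. TG mice carry dnTGFβRII, a dominant-negative TGF-β receptor II known to be driven by a T cell promoter, and serve as a cholangitis model, so the transgene is not aimed at macrophages. The sources used here do not state age, sex, isolation steps or digestion, and nothing says that the 2 libraries of a group came from separate animals, so that p-values measure only the spread between these libraries, which may be technical. Levels are CPM, counts relative to a TMM-scaled library size.

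Immediate early genes need no new protein to be transcribed. Signals that reach the MAP kinases ERK, JNK and p38 activate factors already bound at their promoters, such as SRF with ELK1, CREB and preformed JUN-ATF2 dimers, and the mRNAs appear and decay quickly. The FOS and JUN families and ATF3 pair through leucine zippers into AP-1 dimers, EGR1 is a zinc finger activator, and DUSP1 removes phosphate from the MAP kinases and so closes the loop. HSPA1A is the inducible HSP70 chaperone, controlled by HSF1 when proteins unfold. In macrophages the same genes answer bacterial products and cytokines.

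Libraries held 26190194 to 30308132 counts, and 1 count was worth 0.0309 to 0.0378 CPM, so counting error is small beside the differences between libraries given here. The defining markers of Kupffer cells, none of them at 0, summed to 12353 to 24890 CPM over 5 genes in the Kupffer libraries. They summed to 433 and 228 CPM in MoM TG replicates 1 and 2 and to 117 CPM in MoM WT replicate 2, but to 7482 CPM in MoM WT replicate 1. Endothelial markers (7 genes) summed to 4302 CPM in that library, to 6911 CPM in Kupffer TG replicate 2 and to between 496 and 1945 CPM in the other 6. For the 10 members, median fold changes of TG over WT and of MoM over Kupffer cells are therefore also given without whichever of these 2 libraries they include. Both carry RNA that goes against their labels, but the other libraries are not free of RNA of other cells. Neutrophil markers, for example, summed to 2991 CPM in MoM TG replicate 2. In bulk RNA fewer cells of a type and less RNA per cell cannot be told apart.

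All 10 genes were abundant in all 8 libraries, and the libraries of 1 group differed as much as the groups did. The members took 1.23% and 1.11% of all counts in MoM TG, 2.19% and 1.08% in MoM WT, 1.30% and 1.47% in Kupffer TG and 1.58% and 2.75% in Kupffer WT (replicates 1 and 2). Kupffer WT replicate 2 held the highest level of 6 of the 10 genes. MoM WT replicate 1 stood above MoM WT replicate 2 for all 10. The SD of log2 values within groups exceeded 0.306, the median of the 2239 genes averaging 100 CPM or more, for 9 of the 10, and Junb at 0.27 was the exception. The ratio of the highest to the lowest library was 35.3 for Hspa1a, 9.07 for Egr1, 6.37 for Jun, 5.26 for Dusp1, 4.43 for Fos, 3.62 for Fosb, 2.94 for Atf3, 2.91 for Jund, 2.05 for Ier2 and 1.53 for Junb. Per kb of exon, Junb was the most abundant member, at a mean of 1003 CPM per kb over the 8 libraries, followed by Fos at 885 and Dusp1 at 843 CPM per kb, and Hspa1a the least at 215 CPM per kb.

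**Figure D1:**
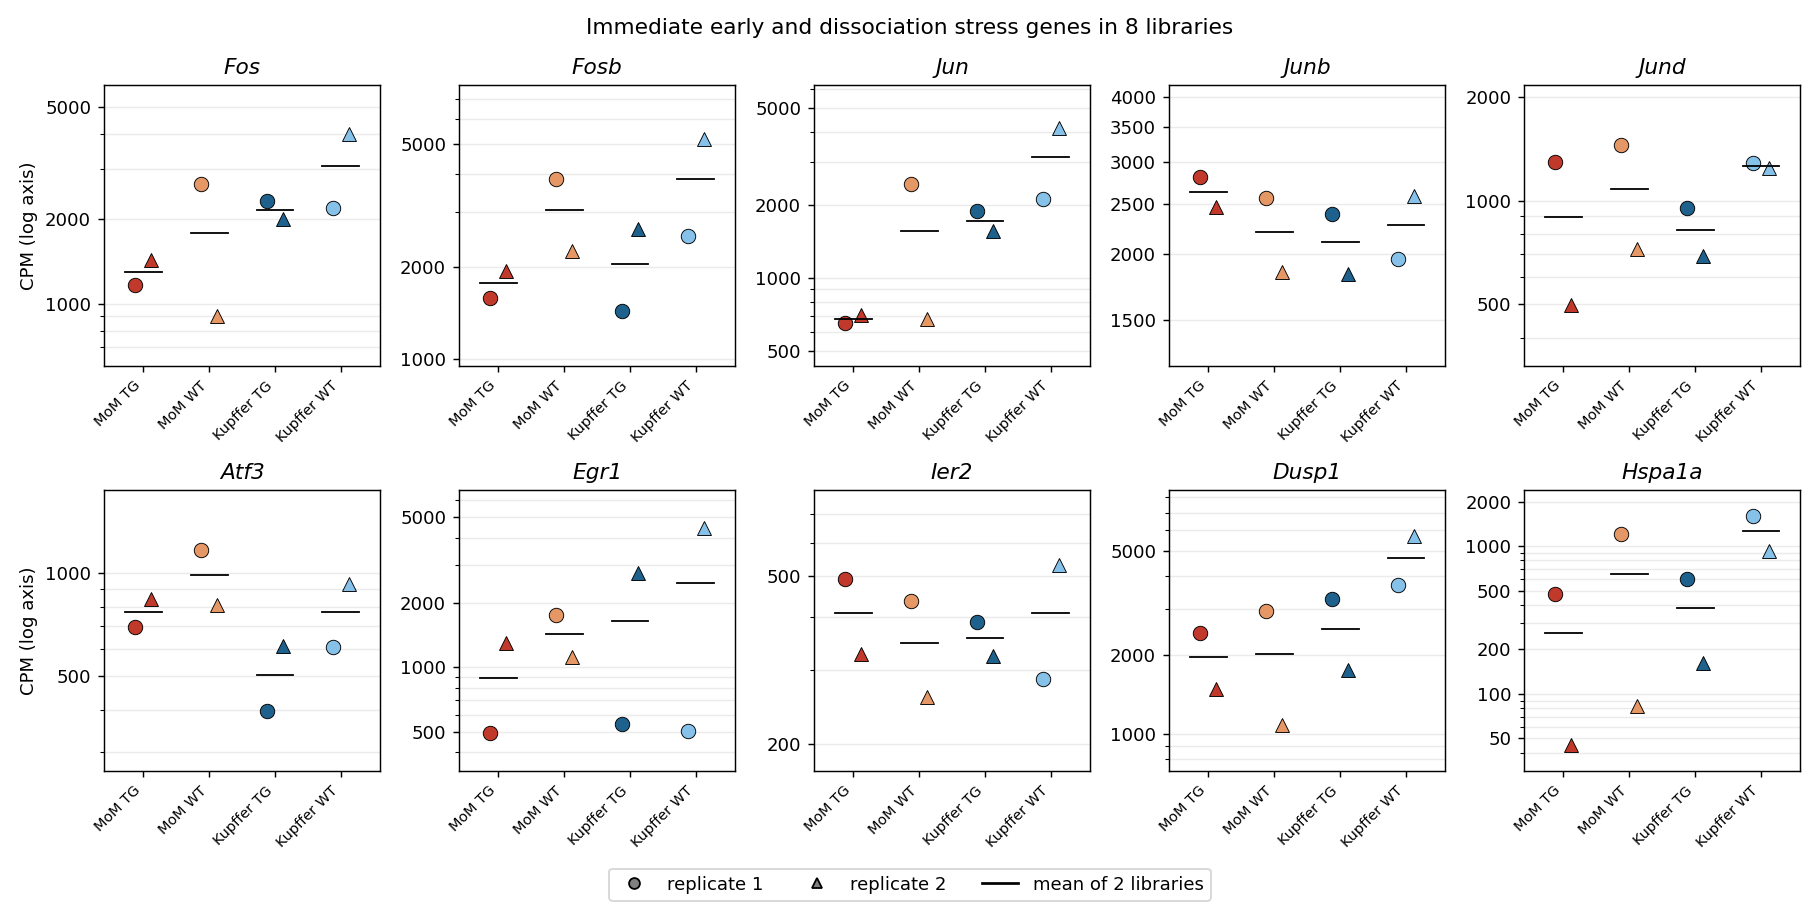
CPM of each gene in each library on log axes that differ between panels, with circles for replicate 1, triangles for replicate 2 and a bar at the mean of the 2 libraries. Hspa1a runs over a 35.3-fold range and Junb over a 1.53-fold range.

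Fos (chromosome 12, 85473890 to 85477273, plus strand, GRCm38, the mm10 assembly) encodes the founding FOS partner of AP-1. It had 1168 and 1424 CPM in MoM TG, 2656 and 902 CPM in MoM WT, 2319 and 1992 CPM in Kupffer TG and 2190 and 3995 CPM in Kupffer WT (replicates 1 and 2). The 3 MoM libraries other than MoM WT replicate 1 lay below every Kupffer library, and the WT pairs overlapped. Fosb (chromosome 7, 19302696 to 19310051, minus strand), its close relative, had 1586 and 1942 CPM in MoM TG, 3856 and 2246 CPM in MoM WT, 1431 and 2654 CPM in Kupffer TG and 2517 and 5176 CPM in Kupffer WT. The MoM TG pair lay below the MoM WT pair. The pairs overlapped between TG and WT Kupffer cells and between MoM and Kupffer cells of either genotype. The ratio of Fosb to Fos in CPM, which compares libraries and not the 2 genes, was 2.49 in MoM WT replicate 2 and 0.62 in Kupffer TG replicate 1 and lay between 1.15 and 1.45 in the other 6.

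Jun (chromosome 4, 95049034 to 95052222, minus strand), a gene of 1 exon whose protein is the main target of JNK, showed the widest spread of the AP-1 genes. It had 653 and 707 CPM in MoM TG, 2441 and 681 CPM in MoM WT, 1883 and 1558 CPM in Kupffer TG and 2117 and 4160 CPM in Kupffer WT. As for Fos, all MoM libraries but MoM WT replicate 1 lay below every Kupffer library. Jun tracked Fos across the 8 libraries (Pearson r = 0.965 on log2 values, 8 libraries), a description of libraries that share their depth and cell mixture. The Fos to Jun ratio in CPM was 1.79 and 2.02 in MoM TG, 1.09 and 1.32 in MoM WT, 1.23 and 1.28 in Kupffer TG and 1.03 and 0.96 in Kupffer WT. The MoM TG ratios were the highest pair of the 4 groups.

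The promoters of Fos and Jun are shown from 250 bases before to 50 bases after the RefSeq start, on the gene's strand in GRCm38.p6. Fos lies at chr12:85473640-85473939 and Jun at chr4:95052173-95052472. Capitals mark in Fos TATAAA, whose first base is 33 bases before the start, and in Jun GAANNTTC (128 bases before), CCAAT (65 before) and TGACNTCA (45 before).
Fos: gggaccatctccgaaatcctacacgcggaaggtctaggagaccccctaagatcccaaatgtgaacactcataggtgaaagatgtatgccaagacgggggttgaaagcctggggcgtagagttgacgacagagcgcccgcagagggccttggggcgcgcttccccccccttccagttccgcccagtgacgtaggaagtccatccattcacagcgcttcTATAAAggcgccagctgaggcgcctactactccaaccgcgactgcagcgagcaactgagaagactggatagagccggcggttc
Jun: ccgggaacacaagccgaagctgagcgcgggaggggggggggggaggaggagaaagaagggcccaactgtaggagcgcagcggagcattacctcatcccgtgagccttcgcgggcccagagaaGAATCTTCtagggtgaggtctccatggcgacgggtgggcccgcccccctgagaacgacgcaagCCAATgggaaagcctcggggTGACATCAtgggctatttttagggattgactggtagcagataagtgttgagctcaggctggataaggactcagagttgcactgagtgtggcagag
Each motif was searched on both strands. TGACNTCA, the CRE-like letters known to bind JUN-ATF2 dimers at the Jun promoter, was found in 8.83% of 32851 RefSeq promoter windows of the same length, GAANNTTC, a paired heat shock unit, in 7.86%, TATAAA in 13.6% and CCAAT in 37.4%. The match is of letters only.

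Junb (chromosome 8, 84974484 to 84978718, minus strand), which often restrains Jun at shared sites, was the steadiest member. It had 2813 and 2461 CPM in MoM TG, 2563 and 1852 CPM in MoM WT, 2392 and 1836 CPM in Kupffer TG and 1956 and 2591 CPM in Kupffer WT. Both MoM TG libraries lay above both Kupffer TG libraries, and the WT groups overlapped. Jund (chromosome 8, 70698949 to 70700616, plus strand), the member of the family that cells express without a stimulus, had 1295 and 497 CPM in MoM TG, 1448 and 723 CPM in MoM WT, 954 and 693 CPM in Kupffer TG and 1285 and 1242 CPM in Kupffer WT. Replicate 1 lay above replicate 2 in all 4 groups.

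The makeup of the Jun family differed between libraries. Of the summed CPM per kb of Jun, Junb and Jund, Jun made up 9.30% and 13.95% in MoM TG, 27.86% and 14.71% in MoM WT, 26.82% and 28.70% in Kupffer TG and 29.06% and 41.08% in Kupffer WT. Junb made up 55.48% and 67.31% in MoM TG, 40.55% and 55.45% in MoM WT, 47.22% and 46.89% in Kupffer TG and 37.22% and 35.46% in Kupffer WT. In TG the MoM pair had a smaller Jun share and a larger Junb share than the Kupffer pair. In WT the Jun shares of both MoM libraries lay below those of both Kupffer libraries and the Junb shares above, with MoM WT replicate 1 the nearer to the Kupffer libraries on both.

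**Figure D2:**
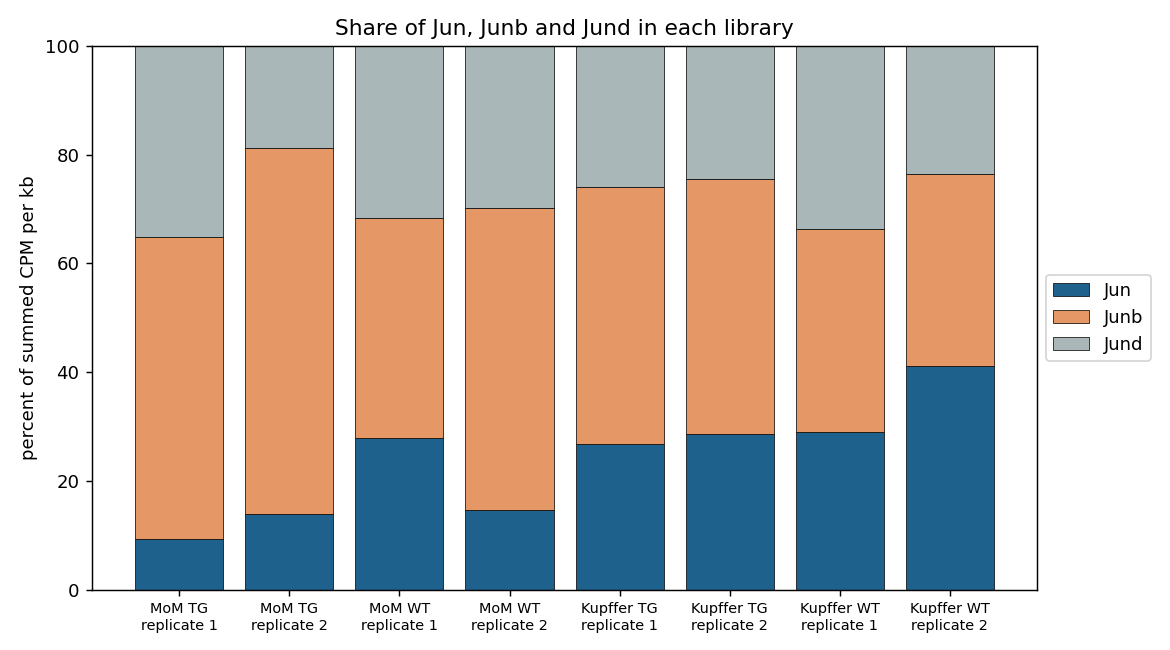
Percent of the summed CPM per kb of Jun, Junb and Jund that each gene holds, 1 bar per library. Jun ranges between 9.30% in MoM TG replicate 1 and 41.08% in Kupffer WT replicate 2.

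Atf3 (chromosome 1, 191170296 to 191218039, minus strand), a stress-induced repressor that pairs with JUN proteins and limits inflammatory genes in macrophages, had 698 and 842 CPM in MoM TG, 1167 and 808 CPM in MoM WT, 397 and 614 CPM in Kupffer TG and 610 and 931 CPM in Kupffer WT. The MoM TG pair lay above the Kupffer TG pair, and the WT pairs overlapped. Egr1, the zinc finger activator, had 491 and 1293 CPM in MoM TG, 1752 and 1113 CPM in MoM WT, 544 and 2736 CPM in Kupffer TG and 503 and 4453 CPM in Kupffer WT. In 3 of the 4 groups replicate 2 held the higher Egr1 level, by 2.63-fold in MoM TG, 5.03-fold in Kupffer TG and 8.85-fold in Kupffer WT, and no pair of groups was separated. Egr1 and Fos had r = 0.483 over the 8 libraries. The ratio of Egr1 to Fos in CPM was 0.42 and 0.91 in MoM TG, 0.66 and 1.23 in MoM WT, 0.23 and 1.37 in Kupffer TG and 0.23 and 1.11 in Kupffer WT. Ier2 (chromosome 8, 84661331 to 84662852, minus strand), a small nuclear protein of the early response, had 492 and 327 CPM in MoM TG, 436 and 259 CPM in MoM WT, 390 and 324 CPM in Kupffer TG and 286 and 533 CPM in Kupffer WT, and all groups overlapped.

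Dusp1 (chromosome 17, 26505590 to 26562128, minus strand), the MAP kinase phosphatase, had 2436 and 1484 CPM in MoM TG, 2947 and 1080 CPM in MoM WT, 3260 and 1753 CPM in Kupffer TG and 3689 and 5680 CPM in Kupffer WT. The Kupffer WT pair lay above all 6 other libraries. Its promoter is shown because it holds the same TGACNTCA letters as Jun, 143 bases before the start, in capitals (chr17:26508423-26508722, minus strand).
Dusp1: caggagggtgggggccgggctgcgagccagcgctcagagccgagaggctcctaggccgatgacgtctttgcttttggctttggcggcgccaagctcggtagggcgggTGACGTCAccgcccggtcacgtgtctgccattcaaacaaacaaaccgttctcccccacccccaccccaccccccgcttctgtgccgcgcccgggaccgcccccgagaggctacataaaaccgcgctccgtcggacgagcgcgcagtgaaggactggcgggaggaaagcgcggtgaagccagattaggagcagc
Dusp1 followed Fos across the libraries (r = 0.858) and Hspa1a (r = 0.868), again as a description over 8 libraries.

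Hspa1a (chromosome 17, 34969190 to 34972156, minus strand), 1 exon, had the widest range of the 10. It had 473 and 45.1 CPM in MoM TG, 1215 and 82.6 CPM in MoM WT, 603 and 163 CPM in Kupffer TG and 1590 and 921 CPM in Kupffer WT. Replicate 1 was higher in all 4 groups, by 10.5-fold in MoM TG, 14.7-fold in MoM WT, 3.71-fold in Kupffer TG and 1.73-fold in Kupffer WT. Its neighbour and near copy Hspa1b (chromosome 17, 34956436 to 34959238, minus strand) moved the same way, with 514 and 40.7 CPM in MoM TG, 940 and 75.8 CPM in MoM WT, 578 and 113 CPM in Kupffer TG and 1413 and 644 CPM in Kupffer WT (r = 0.993 with Hspa1a). Of the 50-base windows of the Hspa1a exon, 58.8% are also in Hspa1b, so how reads were divided between the 2 is uncertain and they are not separate measurements. The promoters of both carry GAANNTTC, the heat shock letters, 104 bases before the start and CCAAT on the other strand (printed as ATTGG) 67 bases before it, in capitals. Over the window 296 of 300 bases are identical (98.7%). Hspa1a lies at chr17:34972107-34972406 and Hspa1b at chr17:34959189-34959488, both on the minus strand.
Hspa1a: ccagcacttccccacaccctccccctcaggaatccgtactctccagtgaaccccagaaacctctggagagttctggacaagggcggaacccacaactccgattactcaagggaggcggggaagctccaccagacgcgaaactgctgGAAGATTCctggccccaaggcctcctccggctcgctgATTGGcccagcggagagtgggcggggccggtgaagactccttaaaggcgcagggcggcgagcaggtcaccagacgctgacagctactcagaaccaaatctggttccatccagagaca
Hspa1b: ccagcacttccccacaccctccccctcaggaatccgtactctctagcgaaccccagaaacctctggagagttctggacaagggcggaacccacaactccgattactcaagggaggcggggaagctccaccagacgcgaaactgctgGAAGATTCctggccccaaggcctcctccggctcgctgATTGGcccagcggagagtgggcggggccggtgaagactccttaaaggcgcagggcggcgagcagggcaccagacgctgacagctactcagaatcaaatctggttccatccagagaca
Hspa8, the HSP70 that cells express at rest, had 2381 and 2331 CPM in MoM TG, 2407 and 2203 CPM in MoM WT, 2120 and 2242 CPM in Kupffer TG and 2117 and 2228 CPM in Kupffer WT. The spread of Hspa1a was not seen in it.

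The comparison of TG with WT asks whether the cholangitis background moved these genes. In edgeR's quasi-likelihood test, with Benjamini-Hochberg adjustment over all 15254 genes tested, no member passed an adjusted p of 0.05 in Kupffer cells or in MoM, where 0% of all genes were called, nor averaged over both subsets, again against 0% of all genes. At an unadjusted p below 0.05 there were 0 members in each of these 3 comparisons, against 5.94% of all genes in Kupffer cells, 6.47% in MoM and 6.4% averaged. DESeq2 called 0 members, against 1.79%, 1.01% and 1.68% of all genes in the same order. All 10 fold changes were negative in Kupffer cells, with a median log2 fold change of -0.61, while 53.1% of all genes were positive. In Kupffer cells 4 members (Jun, Jund, Dusp1 and Hspa1a) had both TG libraries below both WT libraries, against 17.7% of all genes. Their log2 fold changes were -0.87 ± 0.63 for Jun, -0.62 ± 0.54 for Jund, -0.90 ± 0.61 for Dusp1 and -1.71 ± 1.47 for Hspa1a (± SE, n = 2 libraries a group), with adjusted p of 0.78 to 0.824 in edgeR. Without Kupffer WT replicate 2, the library highest for 6 members, 7 of 10 were negative and the median was -0.30. Without Kupffer TG replicate 2, 9 of 10 were negative and the median was -0.58.

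In MoM, 8 of 10 fold changes of TG over WT were negative, with a median of -0.41, and only Fosb had both TG libraries below both WT libraries (-0.79 ± 0.53, adjusted p = 0.827 in edgeR), against 20% of all genes. This direction rested on MoM WT replicate 1. Without it 3 of 10 were negative and the median was 0.42. Averaged over both subsets, Hspa1a changed by -1.52 (95% interval -4.01 to 0.97), Jun by -1.03 (-2.12 to 0.05) and Fosb by -0.85 (-1.76 to 0.05), and the other 7 lay between -0.64 for Egr1 and 0.08 for Junb. The median of the 10 was -0.49, against 0.03 for all genes. It was -0.53 without Kupffer TG replicate 2 and -0.09 without MoM WT replicate 1. With both left out it was 0.02, and 5 of 10 were negative. Fos then stood at 0.07, Dusp1 at 0.19 and Hspa1a at 0.32. The difference of the TG effects, MoM minus Kupffer, had 0 members called, against 0% of all genes, 0 at an unadjusted p below 0.05 (6.42% of all genes) and 0 in DESeq2 (0.289%), with adjusted p of 0.757 to 0.994 in edgeR.

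The comparison of MoM with Kupffer cells asks whether the monocyte-derived and the resident macrophages differ in these genes. Averaged over both genotypes, 0 of 10 members were called in edgeR, against 18.7% of all genes, and 1 (Jun) had an unadjusted p below 0.05, against 35.6%. Jun stood at a log2 fold change of -1.17 ± 0.45 (95% interval -2.26 to -0.09, adjusted p = 0.118 in edgeR). DESeq2 gave -1.22 and an adjusted p of 0.0236 for it, the 1 member it called, against 28.3% of all genes. Fos stood at -0.77 ± 0.40, Dusp1 at -0.79 ± 0.43, Egr1 at -0.83 ± 0.81, Hspa1a at -0.76 ± 1.02 and Fosb at -0.27 ± 0.37. Atf3 at 0.48 ± 0.26 and Junb at 0.14 ± 0.24 were the members with a positive sign, and Jund at -0.05 ± 0.38 and Ier2 at -0.02 ± 0.29 turned positive when library totals replaced TMM, a scaling that shifts the median of all genes by 0.13.

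The averaged values moved in both directions with single libraries. With all 8 libraries 8 of 10 were negative, with a median of -0.52. The median was -0.76 without MoM WT replicate 1, -0.19 without Kupffer TG replicate 2 and -0.44 without both. Without Kupffer WT replicate 2 there were 6 negative, with a median of -0.08 and Jun at -0.97. Without MoM WT replicate 2 there were 6 negative, with a median of -0.20 and Jun at -0.85. Without MoM WT replicate 1, which holds Kupffer marker RNA, Jun stood at -1.78 and Fos at -1.26. Without both it and Kupffer TG replicate 2, Fos stood at -1.38, Jun at -1.91 and Dusp1 at -1.49. Each of these fits leaves a group with a single library, so effect sizes alone are given here. In TG alone, Fos (-0.73 ± 0.57) and Jun (-1.34 ± 0.64) had both MoM libraries below both Kupffer libraries, against 23.8% of all genes. Junb (0.32 ± 0.34) and Atf3 (0.61 ± 0.37) had both above, against 29.1%. None was called in TG, where 2.5% of all genes were, with 0 members at an unadjusted p below 0.05 (25.4% of all genes) and 0 in DESeq2 (16.9%). In WT, Dusp1 (-1.22 ± 0.62) had both MoM libraries below both Kupffer libraries, against 29.7% of all genes, and 0 members were called, against 1.17%, with 0 at an unadjusted p below 0.05 (25.4% of all genes) and 0 in DESeq2 (18.5%). The median in WT was -0.56, against -0.02 when MoM WT replicate 2 was left out and -0.11 when Kupffer WT replicate 2 was, each with 5 of 10 negative, and -0.99 without MoM WT replicate 1. The median in TG was -0.28, against 0.22 without Kupffer TG replicate 1 and 0.13 without MoM TG replicate 2. Without both MoM WT replicate 1 and Kupffer TG replicate 2, Jun stood at -2.23 and Dusp1 at -2.15 in WT, where MoM was then a single library.

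**Figure D3:**
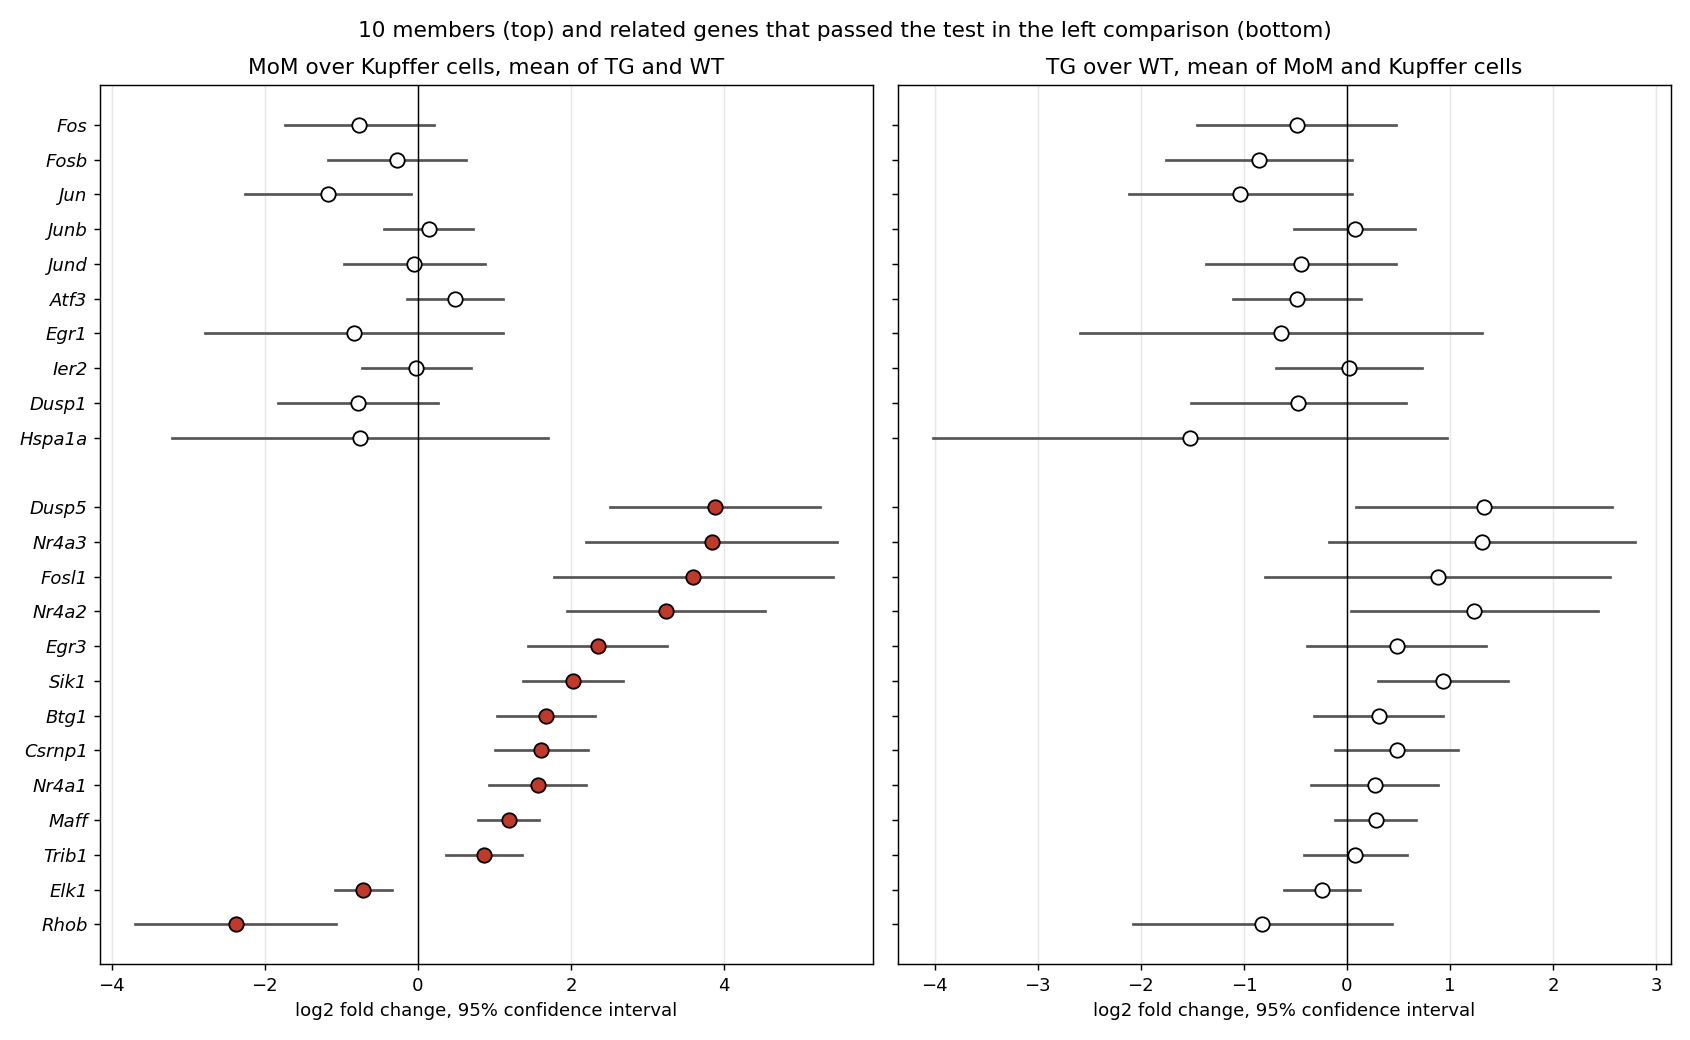
Log2 fold change with its 95% confidence interval for the 10 members (top) and the related genes that passed the test between subsets (bottom), MoM over Kupffer cells on the left and TG over WT on the right, with filled points for an adjusted p below 0.05 in edgeR. No member is filled, and 11 of the 13 related genes lie to the right of 0 on the left.

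Other immediate early transcription factors were mostly at higher levels in MoM. Of 13 listed genes, 7 were higher in MoM and 0 lower in the averaged comparison, against 10.6% of all genes called higher and 8.05% lower, and their median log2 fold change was 1.18, against 0.09 for all genes. At an unadjusted p below 0.05, 7 were higher and 1 lower, against 35.6% of all genes in either direction. DESeq2 called 7 higher and 1 lower, against 28.3%. The NR4A nuclear receptors, which are induced with the AP-1 genes and need no ligand, all passed. Nr4a1 had 3363 and 2407 CPM in MoM TG, 1302 and 1911 CPM in MoM WT, 740.5 and 569 CPM in Kupffer TG and 938 and 683 CPM in Kupffer WT, so every MoM library lay above every Kupffer library (1.56 ± 0.26, adjusted p = 0.0166 in edgeR). Nr4a2 had 438 and 422 CPM in MoM TG, 189 and 322 CPM in MoM WT, 47.3 and 79.9 CPM in Kupffer TG and 32.0 and 6.68 CPM in Kupffer WT (3.24 ± 0.53), and Nr4a3 rose by 3.84 ± 0.68.

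The rest of the called factors were Egr3 (2.35 ± 0.38), a relative of Egr1, Csrnp1 (1.61 ± 0.25), Maff (1.18 ± 0.17), a small MAF protein without an activation domain, and the FOS relative Fosl1 (3.59 ± 0.75), which was rare at 0.448 to 25.9 CPM. Nr4a1 was also called in TG alone (2.14 ± 0.38, adjusted p = 0.0476 in edgeR). That call was lost without any 1 library of Kupffer cells or of MoM TG (adjusted p = 0.0798 to 0.245), and with all 8 under median-of-ratios size factors (0.0546) or without the filter on low counts (0.0508). The averaged calls leaned on 4 libraries: 0 of the 13 were called without Kupffer WT replicate 2, 1 without Kupffer WT replicate 1, 1 without MoM TG replicate 1 and 2 without MoM TG replicate 2. They did not lean on MoM WT replicate 1 or Kupffer TG replicate 2, without either or both of which 7 were called. Neutrophil markers (6 genes) summed to 95.4 and 2991 CPM in MoM TG, 50.2 and 530 CPM in MoM WT, 26.3 and 12.9 CPM in Kupffer TG and 1.33 and 1.94 CPM in Kupffer WT, where 3 and 2 of the 6 were at 0, and B cell and T and NK markers were also mostly higher in MoM. Their part in the result was not tested.

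Among 22 early feedback and signalling genes, 4 were called higher in MoM and 1 lower in edgeR, against 10.6% of all genes called higher and 8.05% lower. At an unadjusted p below 0.05, 7 were higher and 2 lower, against 35.6% of all genes in either direction. DESeq2 called 6 higher and 2 lower, against 28.3%. Dusp5, an ERK phosphatase, rose most (3.88 ± 0.57, adjusted p = 0.0136 in edgeR). It had 456 and 241 CPM in MoM TG, 131 and 279 CPM in MoM WT, 13.9 and 56.3 CPM in Kupffer TG and 11.6 and 7.24 CPM in Kupffer WT, where all MoM libraries lay above all Kupffer libraries. Sik1, a kinase induced by cAMP, rose by 2.03 ± 0.27 and passed in TG alone as well (2.37 ± 0.39, adjusted p = 0.0433 in edgeR), a call also lost without any 1 library of Kupffer cells or of MoM TG (adjusted p = 0.0686 to 0.165) but held under those other settings (0.049 and 0.0399). Btg1, an antiproliferative gene, rose by 1.67 ± 0.27, and Trib1, a scaffold of protein degradation, by 0.86 ± 0.21. Rhob, a small GTPase induced early after stress, fell by 2.38 ± 0.54 on the log2 scale. The counts were 0 to 6 higher and 0 to 2 lower when single libraries were left out, with 0 higher without either Kupffer WT library, 1 without MoM TG replicate 1 and 2 without MoM TG replicate 2, and 0 lower without any of those 4 or Kupffer TG replicate 1.

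Of the related phosphatases, Dusp1 stood at -0.79 ± 0.43 and Dusp6 at -1.34 ± 0.45 (adjusted p = 0.0845 in edgeR). The Dusp5 promoter is shown for its pair of CArG boxes, the letters bound by SRF, which begin 82 and 72 bases before the start and are in capitals (chr19:53528895-53529194, plus strand).
Dusp5: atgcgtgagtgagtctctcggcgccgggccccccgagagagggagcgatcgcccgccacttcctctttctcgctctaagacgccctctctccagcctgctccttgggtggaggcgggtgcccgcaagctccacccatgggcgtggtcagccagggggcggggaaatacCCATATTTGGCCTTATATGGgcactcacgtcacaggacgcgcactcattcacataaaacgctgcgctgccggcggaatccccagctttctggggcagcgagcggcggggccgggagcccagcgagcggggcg
A CArG box was found on either strand in 1.63% of the 32851 windows, and none in the printed Fos window. Sequence upstream of that window was not searched, so its absence there does not show that Fos lacks a CArG box. Of 13 heat shock and chaperone genes, 0 were called between subsets in edgeR, averaged over both genotypes, against 18.7% of all genes. At an unadjusted p below 0.05, 1 was higher and 1 lower (35.6% of all genes in either direction), and DESeq2 called 1 lower (28.3%). Bag3, an HSP70 co-chaperone, was the nearest at -0.56 ± 0.17 (adjusted p = 0.0617 in edgeR), Hsp90aa1 stood at 0.55 ± 0.18 and Hspe1 at 0.46 ± 0.23. Of 11 other partners of AP-1, 0 were called in edgeR (18.7% of all genes). At an unadjusted p below 0.05, 2 were higher and 3 lower (35.6%), and DESeq2 called 1 higher and 3 lower (28.3%). Maf stood at -1.94 ± 0.53 and Atf4 at 0.71 ± 0.21. Of 13 upstream regulators, 2 were higher and 1 lower at an unadjusted p below 0.05 (35.6% of all genes), and DESeq2 called 1 lower (28.3%). In edgeR 1 was called (18.7%). This was Elk1, the SRF partner, which fell (-0.71 ± 0.15, adjusted p = 0.0283 in edgeR). The call was lost without any 1 library other than MoM WT replicate 1 and Kupffer TG replicate 2 (adjusted p = 0.0508 to 0.105). Mapk8, the gene of JNK1, stood at 0.52 ± 0.21 and Srf at 0.46 ± 0.19.

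No gene of these 5 lists, 72 genes in all, was called between TG and WT in edgeR, where 0% of all genes were. At an unadjusted p below 0.05 there were 4 in MoM (6.47% of all genes), 3 in Kupffer cells (5.94%) and 5 averaged (6.4%), shares near those of all genes. DESeq2 called 1 heat shock gene lower in MoM, where it called 1.01% of all genes, and 1 AP-1 partner higher averaged over both subsets, where it called 1.68%. The smallest p of each list there belonged to Nr4a2 (1.24 ± 0.50), Sik1 (0.93 ± 0.26), Hspb1 (-1.22 ± 0.51), Batf2 (1.20 ± 0.31) and Elk1 (-0.24 ± 0.15), with adjusted p of 0.616 to 0.827 in edgeR.

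The 2 libraries of a group differed in a way that recurred across groups for some genes. The labels do not say what the replicate number stands for. Replicate 1 was higher in all 4 groups for Hspa1a and Jund, 2 of the 10 members, against 9.45% of all genes, and replicate 2 for 0 members, against 10.7%. Of the 13 other heat shock genes 5 (Hspa1b, Dnajb1, Dnaja1, Hspe1 and Hspd1) were higher in replicate 1 in all 4 groups. Dnajb1, an HSP40 co-chaperone, had 138 and 99.5 CPM in MoM TG, 121 and 90.7 CPM in MoM WT, 121 and 94.1 CPM in Kupffer TG and 109 and 93.3 CPM in Kupffer WT. Of the 22 feedback genes 7 were higher in replicate 2 in all 4 groups. These were Ier3, Zfp36, Nfkbia, Nfkbiz, Tnfaip3, Ppp1r15a and Ccnl1, most of them known to be induced by NF-κB or stress. Zfp36, which destabilises cytokine mRNAs, had 1742 and 3658 CPM in MoM TG, 2648 and 3108 CPM in MoM WT, 2077 and 3296 CPM in Kupffer TG and 1718 and 3893 CPM in Kupffer WT. The hepatocyte markers (6 genes) summed to 12.3 and 177 CPM in MoM TG, 558 and 591 CPM in MoM WT, 8.85 and 834 CPM in Kupffer TG and 57.3 and 433 CPM in Kupffer WT, higher in replicate 2 each time. Their part in these differences was not tested.

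**Figure D4:**
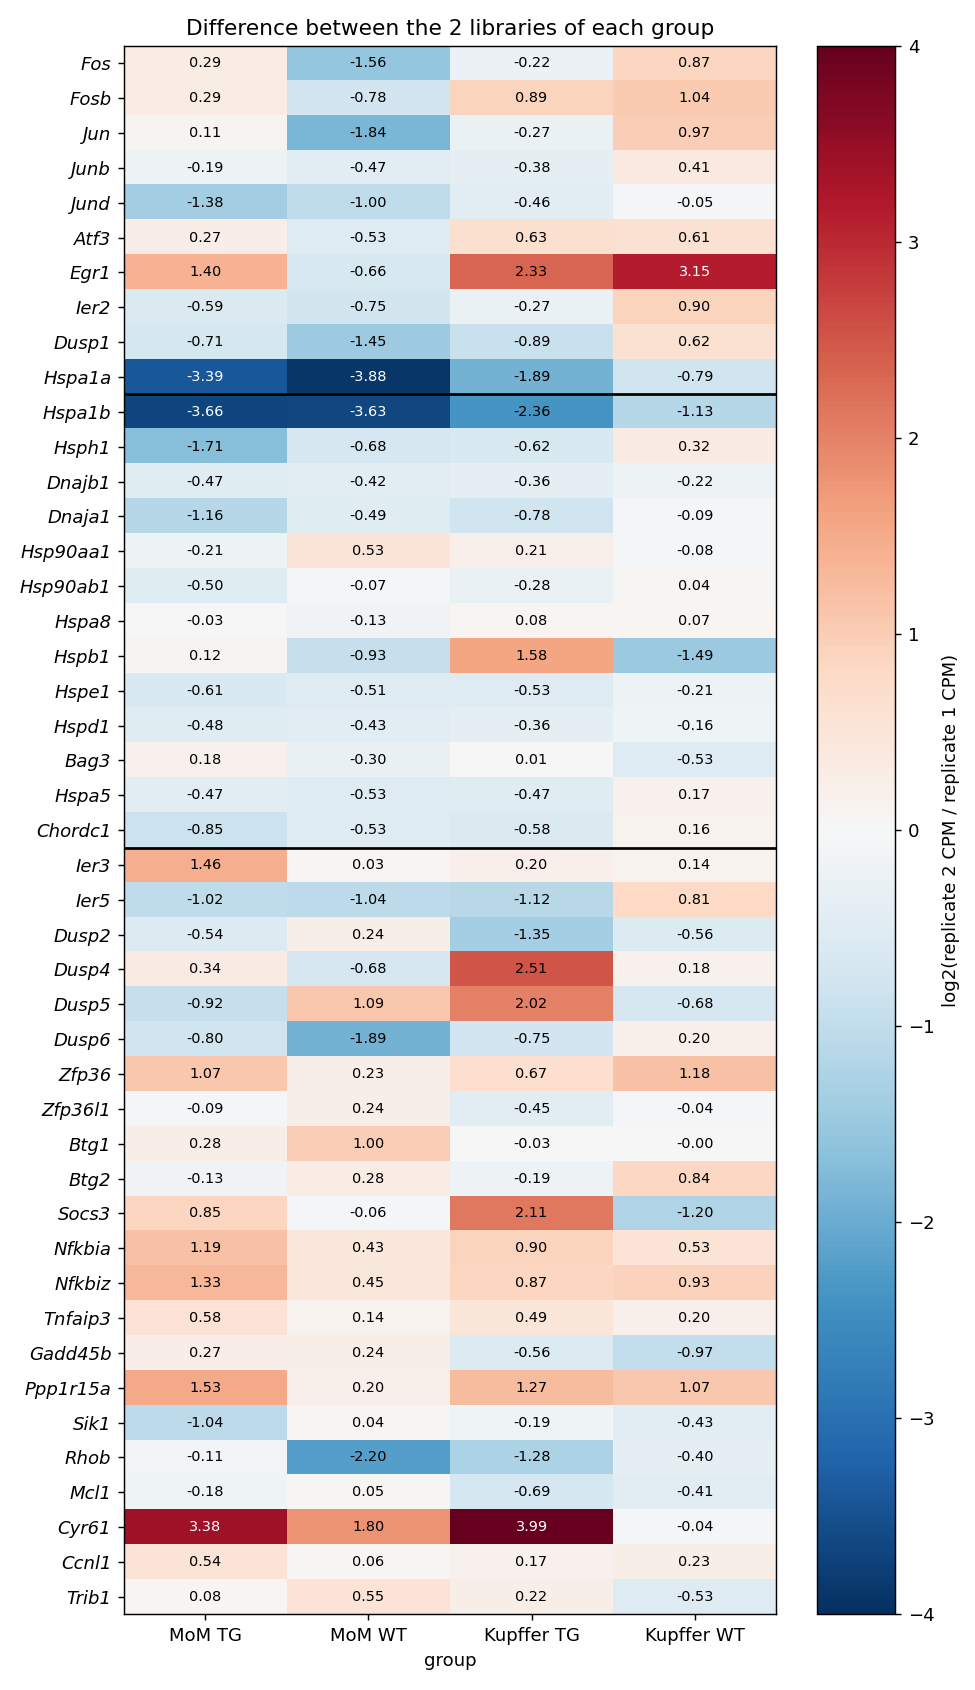
Log2 ratio of replicate 2 to replicate 1 CPM in each group, for the 10 members (top block), 13 heat shock and chaperone genes (middle) and 22 feedback genes (bottom). Hspa1a is negative in all 4 groups, between -3.88 and -0.79, and Egr1 is positive in 3 of them, up to 3.15.

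The genes whose pattern over the 8 libraries was most like the mean pattern of the members, of 8906 candidates averaging 10 CPM or more, were Polr3e (r = 0.981), Sh3bp5l (0.974), Pias4 (0.965), Cnnm3 (0.963), Bbc3 (0.962), Rab22a (0.961), Ints3 (0.960), Capn15 (0.959), Rgl2 (0.951) and Fuz (0.950). Their levels were far below those of the members, with means of 11.9 CPM for Fuz to 102 CPM for Rgl2. Polr3e had 17.9 and 16.5 CPM in MoM TG, 22.4 and 15.0 CPM in MoM WT, 18.4 and 17.8 CPM in Kupffer TG and 19.8 and 27.5 CPM in Kupffer WT, with Kupffer WT replicate 2 and MoM WT replicate 1 on top as for Fos, Fosb and Jun. Against the mean pattern of the other 9 members, Jun (r = 0.881), Fos (0.877) and Dusp1 (0.846) were the closest and Atf3 (0.244), Egr1 (0.268) and Junb (0.319) the farthest, over 8 libraries.

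Egr1 lies on chromosome 18, 34859823 to 34864984, plus strand, in GRCm38. Genes of other names overlap some of these on the genome. Junos lies opposite Jun, Prdx2 opposite Junb, Gm11175 opposite Jund, Ergic1 opposite Dusp1 and Gm20481 opposite Hspa1a. Among the called related genes, Ccdc85b lies opposite Fosl1, 1700019L13Rik opposite Csrnp1, AC137853.2 opposite Dusp5, and Uxt overlaps Elk1 on the same strand. The sources used here do not say whether counting used strand, so reads from the stretch that such a pair shares cannot be told apart. The length of these stretches was not measured.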

How the data were processed

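RNA was measured in 8 libraries, grouped by their sample titles. The authors deposited raw counts per gene symbol, as whole numbers. Reads were aligned with STAR 2.5.2b to mm10, per the submitters' processing notes. The sources used here do not give the counting tool, its annotation or its use of strand. Even numbers made up 65.0% to 68.0% of the counts below 20 in each library, so counts may overstate independent fragments. A further table by the authors was not used here.

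All 8 libraries were fitted with 4 group means in edgeR 4.0.16 (R 4.3.3): filterByExpr, TMM scaling and the quasi-likelihood test, adjusted by Benjamini-Hochberg over 15254 genes and called below 0.05. DESeq2 1.42.0 was an alternative. The fit was tested on simulated data. The averaged comparisons weigh both subsets or genotypes equally. Correlations used log2(CPM + 0.5).

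The members and the 5 lists of related genes were chosen with earlier results of these data known. Named are all members, the genes of each list called in any comparison, those with the smallest p, and the 10 most like genes. 1 gene that this rule names is not reported here. Positions and exon lengths are from GENCODE M21 (GRCm38), and promoters from RefSeq GRCm38.p6, where 8 of the 10 members had an entry that could be shown. Motifs were chosen with these sequences in view. Alternatives were other scalings, no filter, a replicate block, left-out libraries and DESeq2. Python 3.11.15 (pandas 2.3.3, numpy 2.4.6) handled tables and matplotlib 3.10.9 figures.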

Additional observations from a re-analysis of the deposited data

How the results depend on the processing

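The spread between 2 libraries a group limits every value, with 4 residual degrees of freedom and a biological coefficient of variation of 0.507; counting depth does not. Of 430 recomputed member fold changes, 26 reversed sign. The 430 cover all 10 members in the averaged comparisons. Within 1 subset or genotype they cover only members whose groups did not overlap, so sign changes of the others there are not counted. Library totals alone gave -0.0056 for Ier2 averaged between TG and WT, and 0.092 for Jund and 0.12 for Ier2 averaged between MoM and Kupffer cells. Without both MoM WT replicate 1 and Kupffer TG replicate 2, the averaged TG over WT value was 0.069 for Fos, 0.19 for Dusp1 and 0.32 for Hspa1a. Of the 10 members, 5 were negative in that comparison. The averaged MoM over Kupffer value was then -0.15 for Junb. With single libraries left out, averaged TG over WT ranged between -0.78 and 0.0044 for Fos, -0.041 and 0.20 for Junb, -1.41 and 0.48 for Egr1 and -0.15 and 0.27 for Ier2. Averaged MoM over Kupffer ranged between -0.027 and 0.25 for Junb, -0.47 and 0.22 for Jund, -1.30 and 0.25 for Egr1 and -0.26 and 0.17 for Ier2. The causes were not tested.

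Genes called with single libraries left out ranged between 0 and 257 for TG over WT in Kupffer cells, 0 and 1026 for MoM over Kupffer in TG, 0 and 1434 in WT, 84 and 4458 averaged, and 0 and 83 for the difference of TG effects. Each of these fits leaves a group with a single library, so member calls in them are not counted. The averaged MoM over Kupffer median of the members ranged between -0.76 and -0.08 in them. Without both libraries with RNA of other cells, 2130 genes were called in TG, 2677 in WT and 4972 averaged, against 381, 178 and 2845 with all 8, with 2 members called in WT and 3 averaged and 2 feedback genes called lower. With only the 4 libraries compared, 0 genes were called in TG and 1585 in WT. DESeq2 called 251 genes for TG over WT in Kupffer cells, 141 in MoM and 248 averaged, 2563 for MoM over Kupffer in TG, 2867 in WT and 4492 averaged, 47 for the difference of TG effects, 1 member averaged between subsets and 2 feedback genes lower. The related genes that passed the test with all 8 libraries kept the sign of their fold changes in 212 of 212 recomputations and their call in 140. They were picked by that test in these same data, so a kept sign was likely in advance. The other listed genes were not counted.

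The correlation of deviations between same-numbered replicates was over 0.1 in 4 of 6 pairs of groups (0.15 to 0.62, highest between MoM TG and Kupffer TG) and 0.078 and -0.14 in the other 2, so the numbers were not taken to pair the samples throughout. The replicate block called 0 members and gave 2 feedback genes called lower. It reversed 0 of the member fold changes counted among the 430. Over all 10 members, signs did change within 1 subset or genotype. For TG over WT in MoM 7 were negative, against 8 in the main fit, and for MoM over Kupffer in WT 8, against 9. Nr4a1 in TG alone had an adjusted p of 0.0586 in edgeR.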
